A study of Rattus norvegicus with 6 samples.

Results

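The genes described here move bile acids through the absorptive cell of the ileum or, for 1 of them, join bile acids to coenzyme A. In all 7 were followed out of 14506 genes tested. They were chosen by name, with earlier results of these data known. Slc10a2 stands for uptake from the gut lumen, Fabp6 for binding inside the cell, and Slc51a, Abcc3 and Abcc4 for export to the blood side. Abcc2 stands for export back to the lumen, and Slc27a5 encodes a bile acid CoA ligase. All 7 were measured, each by at least 1 array row that carries its symbol and no other. The tissue was ileum, the end of the small intestine, from 6 rats. Both groups share the genotype Zucker fa/fa, whose leptin receptor is defective and which becomes obese. The rats were operated on at 20 weeks of age and killed 14 days later. In 3 rats a duodenum-jejunum bypass (DJB) joined the jejunum, cut 10 cm beyond the ligament of Treitz, to the start of the duodenum, and the limb that carries bile and pancreatic juice was joined further down. The other 3 rats had a sham operation, in which the gut was cut and rejoined so that food kept its usual path.

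RNA of each rat went onto 1 Affymetrix rat gene array, and values are log2 expression after RMA. The labels call the rats of a group biological replicates. The 6 arrays had medians between 6.08 and 6.19 and correlated at 0.987 to 0.993 across all rows. With 3 arrays per group, precision is limited by their number. Each change is a log2 difference, the DJB mean less the sham mean, with the standard error (SE) or the 95% confidence interval of a limma fit over all genes. Rose and fell are said only of genes with a limma p under 0.05 after adjustment over all genes tested. In whole tissue, fewer cells of a type and less RNA per cell cannot be told apart.

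Bile acids are made in the liver, pass into the gut with a meal, and are recovered mostly in the ileum, from where the portal blood returns them to the liver. An ileal absorptive cell takes them up through the sodium-coupled transporter encoded by Slc10a2, carries them across on the small binding protein encoded by Fabp6, and releases them on the blood side through a transporter built from the Slc51a and Slc51b products. Members of the Abcc family of ATP-driven pumps export bile acids and their conjugates as well. The bile acid receptor FXR, encoded by Nr1h4, raises transcription of Fabp6, Slc51a, Slc51b and the hormone gene Fgf19 in this cell.

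After the bypass, the uptake gene Slc10a2 rose 3.32-fold and the basolateral pump gene Abcc3 rose 1.52-fold. The other 5 genes did not pass over all genes. Fabp6, Slc51a and Slc27a5 were higher by 1.24-fold to 1.39-fold, the apical pump gene Abcc2 was 2.19-fold lower, and Abcc4 differed least. So 2 of the 7 genes rose and none fell by the limma test, beside 0.393% of all genes tested that rose, 0.379% that fell and 0.772% called in either direction. At an unadjusted p under 0.05 there were 6 of the 7, beside 14.3% of all genes tested. In 6 of the 7 the DJB and sham values did not overlap, beside 21.1% of all genes tested, and 5 of these were higher (14.5% of all genes) and 1 lower (6.56%). The median change of the 7 was 0.37, beside 0.05 for all genes. Because the 7 were chosen with earlier results of these data known, these shares describe them and do not test an excess.

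**Figure D1:**
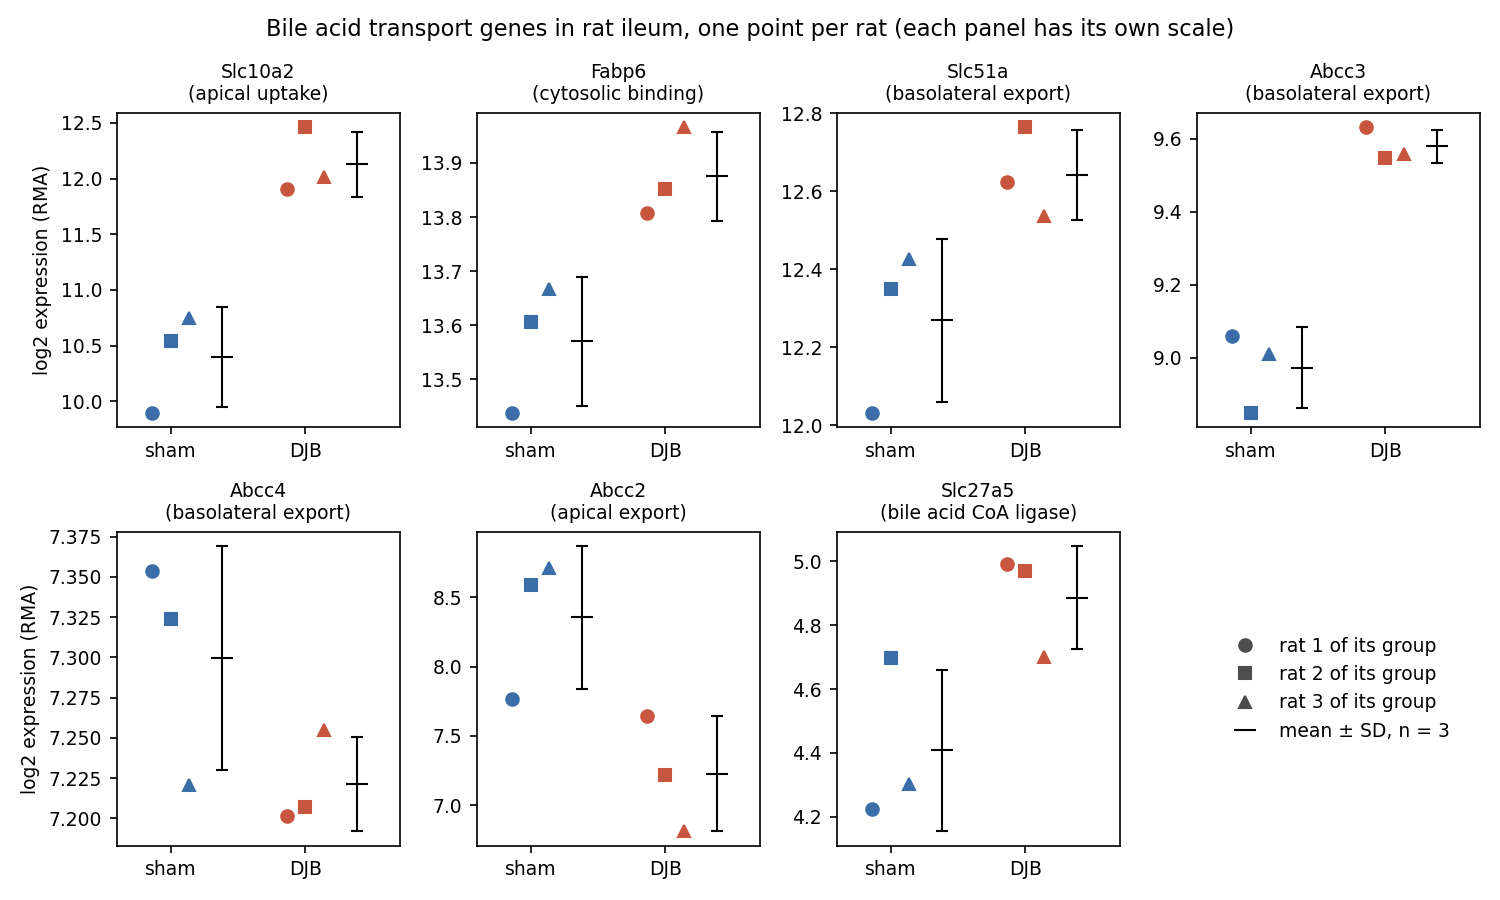
Log2 expression of the 7 genes, 1 point per rat, with the mean and SD of 3 rats per group. The marker gives the rat's number within its group, and each panel has its own scale. The DJB points lie above the sham points for Slc10a2, Fabp6, Slc51a, Abcc3 and Slc27a5 and below them for Abcc2, while those of Abcc4 overlap.

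Promoter sequence is shown for the uptake gene, which rose, for the binding protein gene, and for the pump gene that differed in the opposite direction. The sequences are the 250 bases before the annotated start from RefSeq on the rat build GRCr8. Such windows were found for 6 of the 7 genes, and Abcc3 was not among them. The capitals mark a match to ATTAAC, the half-site of the liver and gut factor HNF1, in Slc10a2 (chr16:91087839-91088088, plus strand). In Fabp6 they mark an inverted repeat, searched as the arms GGTNA and TNACC with 1 base between them (IR-1), the arrangement that FXR binds (chr10:28569728-28569977, minus strand). In Abcc2 (chr1:252613625-252613874, plus strand) they mark an everted repeat, searched as the arms TGAACT and AGTTCA with 8 bases between them (ER-8), a form bound by FXR and by the xenobiotic receptors PXR and CAR.
Slc10a2: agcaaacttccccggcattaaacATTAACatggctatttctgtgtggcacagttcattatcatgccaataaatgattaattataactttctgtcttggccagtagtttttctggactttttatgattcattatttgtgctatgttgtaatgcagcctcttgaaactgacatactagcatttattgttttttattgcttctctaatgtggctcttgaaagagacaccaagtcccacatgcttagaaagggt
Fabp6: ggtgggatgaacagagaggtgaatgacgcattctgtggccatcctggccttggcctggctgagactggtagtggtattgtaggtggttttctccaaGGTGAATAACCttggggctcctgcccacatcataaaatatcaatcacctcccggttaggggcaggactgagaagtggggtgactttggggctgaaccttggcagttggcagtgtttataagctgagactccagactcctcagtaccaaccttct
Abcc2: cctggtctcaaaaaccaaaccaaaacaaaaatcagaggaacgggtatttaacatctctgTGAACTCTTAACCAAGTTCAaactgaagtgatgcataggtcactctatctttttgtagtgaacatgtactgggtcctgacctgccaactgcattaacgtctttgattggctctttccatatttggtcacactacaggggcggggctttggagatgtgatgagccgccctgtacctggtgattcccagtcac

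Both strands were searched for each motif. The IR-1 match of Fabp6 lies 154 to 144 bases before the start, and 0.218% of the 33469 windows of this length hold such a match. The ER-8 match of Abcc2 lies 191 to 172 bases before the start, and it is in 1 window of the 33469, that of Abcc2 itself. The ER-8 arms searched are letter for letter those of the Abcc2 window, and each IR-1 arm searched leaves 1 letter open. These 2 shares therefore do not tell how common receptor sites are in general. The HNF1 half-site of Slc10a2 lies 227 to 222 bases before the start, and 6.45% of windows hold 1 or more, that of Abcc2 included. The nuclear receptor half-site AGGTCA, in 14.1% of windows, was found in that of Abcc2 at 155 and at 115 bases before the start. The windows of Slc51a, Abcc4 and Slc27a5 held no match to any of these motifs. A match describes these letters only, and binding was not measured here.

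Slc10a2 encodes the apical sodium-dependent bile acid transporter, the entry step. Its log2 values were 9.90, 10.54 and 10.75 in sham 1 to 3 and 11.91, 12.46 and 12.02 in DJB 1 to 3. The groups were 1.16 apart at their nearest, sham 1 was the lowest of all and DJB 2 the highest. The change was 1.73 (95% interval 1.23 to 2.23, SE 0.22, limma adjusted p = 0.0106), which as a fold is 2.35 to 4.70. Leaving out any 1 rat gave changes from 1.48 to 1.91 and adjusted p values from 0.0128 to 0.0496, so the call was kept in all 6 cases.

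Fabp6 encodes the ileal bile acid binding protein, which shuttles bile acids between the membranes. Values were 13.44, 13.61 and 13.67 in sham and 13.81, 13.85 and 13.97 in DJB. Each DJB rat was above each sham rat, by 0.14 at the nearest. The change of 0.30 (0.07 to 0.53, limma adjusted p = 0.230) did not pass. It was 0.12 after quantile normalisation was repeated on the deposited values (adjusted p = 0.630), and these values lie near the top of the scale, where the highest row of an array was between 13.85 and 14.10.

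Slc51a encodes the alpha subunit of the heteromeric exporter on the blood side; its partner gene Slc51b was not analysed here. Values were 12.03, 12.35 and 12.43 in sham and 12.62, 12.76 and 12.54 in DJB. The groups were 0.11 apart, with sham 1 the lowest and sham 3 next to DJB 3. The change of 0.37 (0.09 to 0.65, limma adjusted p = 0.232) did not pass, and it ranged from 0.25 without sham 1 to 0.45 without sham 3.

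Abcc3 encodes a pump of the basolateral membrane (MRP3) that carries glucuronides and bile acids. Values were 9.06, 8.85 and 9.01 in sham and 9.63, 9.55 and 9.56 in DJB, a tight pair of groups 0.49 apart. It rose by 0.61 (0.39 to 0.83, SE 0.10, limma adjusted p = 0.0289). The call ended without any 1 of the 6 rats (adjusted p from 0.0718 to 0.113) and when all array rows were tested (adjusted p = 0.0651), while the change stayed between 0.54 and 0.65.

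Abcc4 encodes another basolateral pump (MRP4), which exports sulfated bile acids and cyclic nucleotides. Values were 7.35, 7.32 and 7.22 in sham and 7.20, 7.21 and 7.26 in DJB, so the groups overlapped. The change was -0.08 with an interval of -0.28 to 0.13 (limma adjusted p = 0.747), which does not hold the 0.61 seen for Abcc3. Its 2 dimmer rows gave changes of -0.13 and -0.07.

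Abcc2 encodes the apical pump MRP2, which sends conjugated compounds, bile acid conjugates among them, back to the lumen. Values were 7.76, 8.59 and 8.71 in sham and 7.64, 7.22 and 6.81 in DJB. Every DJB rat was below every sham rat, but sham 1 was only 0.12 above DJB 1. The difference of -1.13 (-1.74 to -0.53, SE 0.27) did not pass over all genes (limma adjusted p = 0.121). It passed without sham 1, at -1.43 (adjusted p = 0.0345), and with an intensity trend in the variance (adjusted p = 0.0488), and without any other 1 rat the adjusted p was 0.106 to 0.320.

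Slc27a5 encodes a fatty acid transport protein that also joins bile acids to coenzyme A before they are conjugated, a step best known from the liver. Values were 4.22, 4.70 and 4.30 in sham and 4.99, 4.97 and 4.70 in DJB. The groups came within 0.0032 of each other, sham 2 against DJB 3. The change of 0.48 (0.15 to 0.80, limma adjusted p = 0.190) did not pass, and this was the only 1 of the 7 genes whose mean lay below 6.11, the median of all rows, so the fold may be understated.

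**Figure D2:**
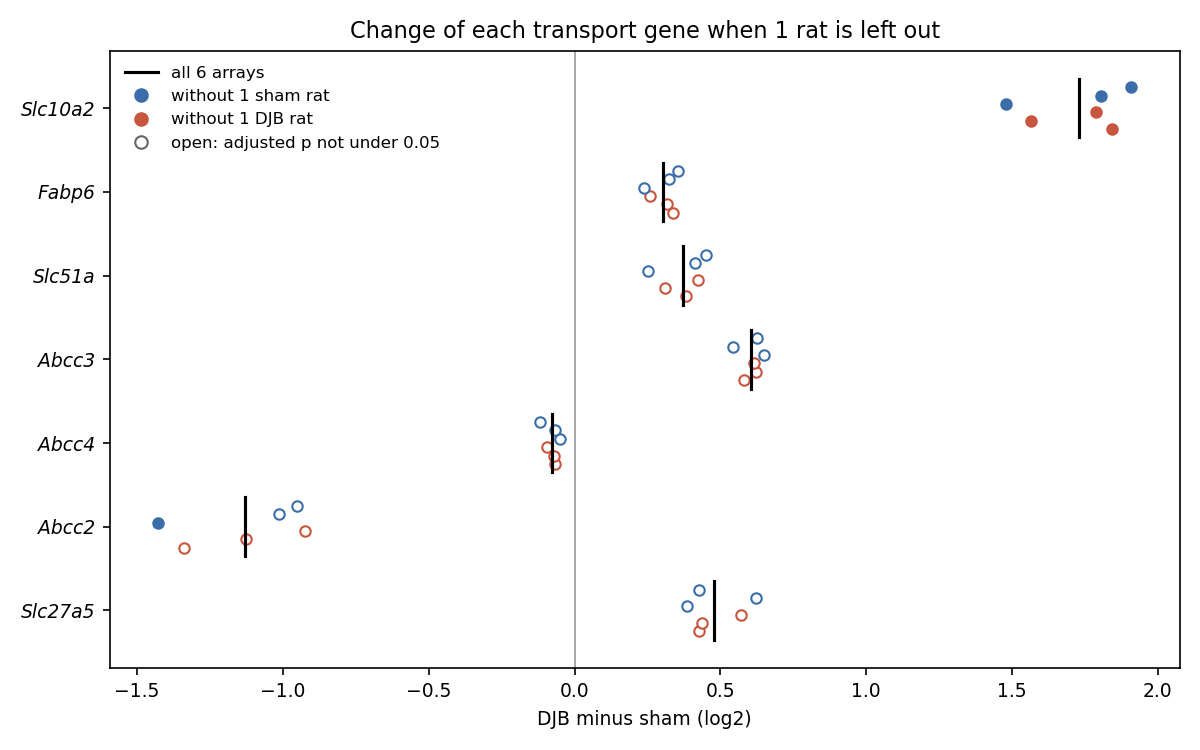
Change (DJB minus sham, log2) of each gene when 1 rat is left out, blue for a sham rat and red for a DJB rat, filled where the adjusted p is under 0.05; the black bar is the change over all 6 arrays. Slc10a2 is filled in all 6 cases and Abcc3 in none, and Abcc2 is filled only without sham 1.

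The rats of a group did not hold the same place in every gene. Sham 1 was the lowest sham rat in 5 of the 7 genes, namely Slc10a2, Fabp6, Slc51a, Abcc2 and Slc27a5, and the highest in Abcc3 and Abcc4. Sham 3 was the highest sham rat in Slc10a2, Fabp6, Slc51a and Abcc2. Among the DJB rats, DJB 2 was highest in Slc10a2 and Slc51a, DJB 3 in Fabp6 and Abcc4, and DJB 1 in Abcc3, Abcc2 and Slc27a5. The lowest uptake and the lowest apical pump values among sham rats thus came from the same rat.

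To ask whether steps of the pathway changed unequally, 6 differences between genes were taken within each array and compared between groups by exact two-sided permutation tests. With 3 against 3 rats the smallest p is 0.1, so none could pass. The 6 differences share genes and are not separate results, and how often other pairs of genes part the groups was not computed. Only the shift of such a difference between groups can be read, since the levels of different rows do not share a scale. The Abcc3 minus Abcc2 difference was 1.30, 0.26 and 0.30 in sham and 1.99, 2.33 and 2.75 in DJB. This difference shifted by 1.74 toward the basolateral pump (exact permutation p = 0.1, 0.12 adjusted over the 6). Its groups could not overlap, since every DJB rat was above every sham rat in Abcc3 and below in Abcc2. It therefore adds no separate result to those of the single genes. Slc10a2 gained 1.43 on Fabp6, 1.36 on Slc51a and 1.12 on Abcc3, again with no overlap (exact permutation p = 0.1 each, 0.12 adjusted). Fabp6 lies near the top of the scale, where its own change can be understated and the shift against it overstated. Abcc3 gained 0.68 on Abcc4 (exact permutation p = 0.1, 0.12 adjusted). Abcc4 minus Abcc2 shifted by 1.05, but sham 1 at -0.41 lay above DJB 1 at -0.44 (exact permutation p = 0.2).

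**Figure D3:**
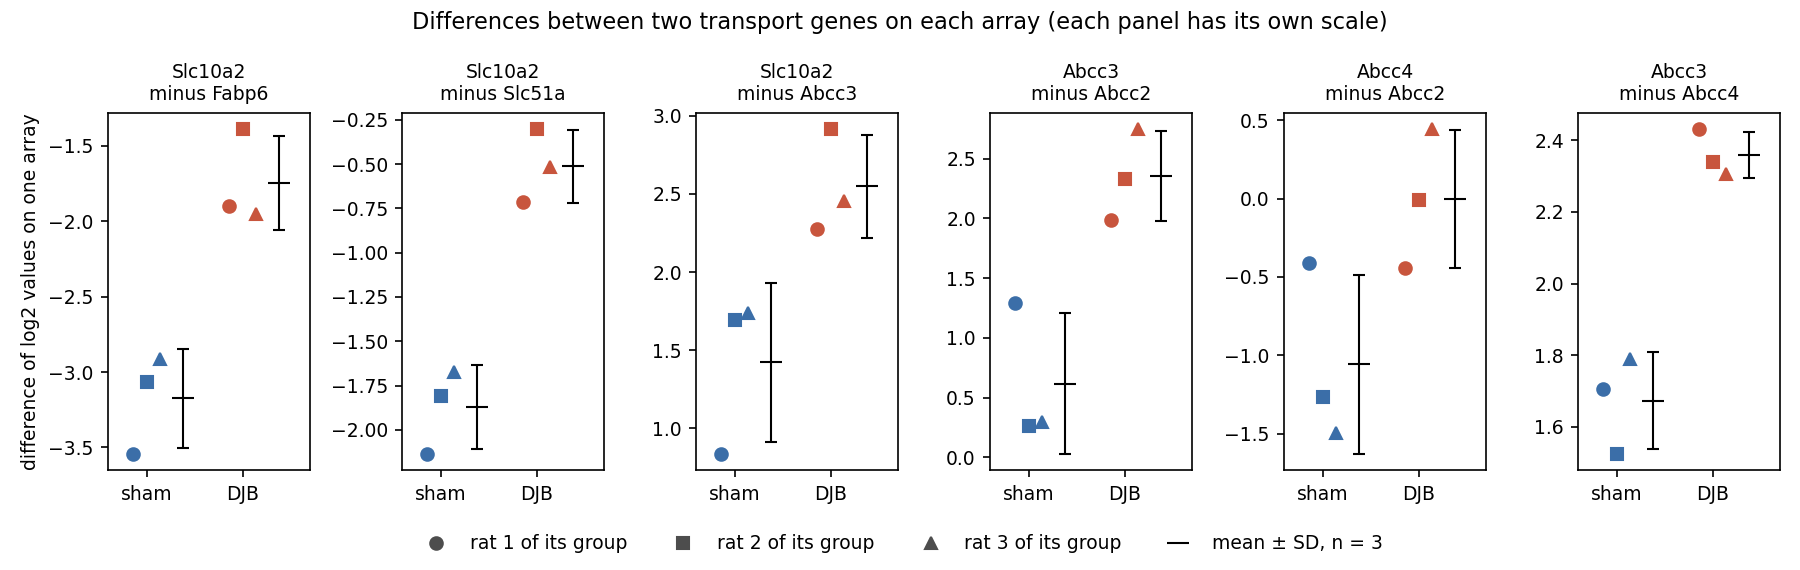
Differences between the log2 values of 2 genes on the same array, 1 point per rat, with the mean and SD of 3 rats per group; each panel has its own scale and only the shift between groups is comparable. In 5 of the 6 panels the groups do not overlap, with the largest shift of 1.74 for Abcc3 minus Abcc2. In Abcc4 minus Abcc2 sham 1 reaches the DJB range. The panels share genes whose own groups did not overlap, so they are not separate results, and no share over other gene pairs was computed.

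The mean level of epithelial transcripts overlapped between the groups. Of 16 markers of the absorptive epithelium, among them Epcam, Cdh1, Cdh17 and Vil1, 15 were measured and none passed the limma test. Only Epcam, at 0.21, was at an unadjusted limma p under 0.05, beside 14.3% of all genes tested. In 5 of the 15 markers the groups did not overlap, 4 higher and 1 lower in DJB, beside 21.1% of all genes tested. The mean level of the 15 markers was 11.91 to 12.14 in sham and 11.95 to 12.06 in DJB. Taken relative to that mean on each array, Slc10a2 changed by 1.72, Abcc3 by 0.59, Slc51a by 0.36, Fabp6 by 0.29 and Abcc2 by -1.15. Each of these had no overlap between groups (exact permutation p = 0.1). Slc27a5 at 0.46 and Abcc4 at -0.09 overlapped (exact permutation p = 0.2 and 0.5). After repeated quantile normalisation the relative change of Fabp6 was 0.15 and its groups overlapped (exact permutation p = 0.3), while those of Slc27a5 no longer did. The mean levels of other marker lists overlapped between groups, with leukocytes at 7.71 to 8.11 in sham and 7.57 to 8.11 in DJB, smooth muscle at 9.73 to 10.18 and 9.97 to 10.23, and fibroblasts at 8.93 to 9.29 and 9.09 to 9.65. No fibroblast marker passed the limma test, but 4 of 6 were at an unadjusted p under 0.05 and higher in DJB, the collagen genes Col1a1 (0.71), Col1a2 (0.52) and Col3a1 (0.52) and the matrix gene Lum (0.56), each with overlapping groups. Their part in the changes of the transport genes was not tested. At an unadjusted limma p under 0.05 there were also 2 of 9 leukocyte markers and 1 of 8 smooth muscle markers, beside 14.3% of all genes tested. These were Csf1r (0.35), Cd68 (0.27) and Acta2 (0.25), none of which passed, all higher in DJB with groups not overlapping. The smooth muscle marker Smtn (-0.21) was lower, also without overlap. Groups did not overlap in 2 of the 9 and 2 of the 8 markers, beside 21.1% of all genes tested. Of the hepatocyte markers 9 of 10, and of the exocrine pancreas markers 6 of 8, lay below the median of all rows.

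The mean levels of markers of position along the gut did not overlap between the groups. Of 8 markers of the proximal small intestine 6 were measured, and their mean level was 7.65 to 7.79 in sham and 6.83 to 7.20 in DJB. The folate transporter gene Slc46a1 fell by 2.38 (SE 0.29, limma adjusted p = 0.00986), a call that ended without sham 3 or DJB 2 (up to 0.0576), and the calcium-binding protein gene S100g fell by 1.10 (SE 0.13, limma adjusted p = 0.00938). The other 4 did not pass and went both ways. The transcription factor gene Gata4 was at -1.18 (limma adjusted p = 0.0643) and the hormone gene Gip at -0.49 (limma adjusted p = 0.165), both with groups not overlapping. The iron genes Slc40a1 and Cybrd1 were at 0.49 (limma adjusted p = 0.0530, groups not overlapping) and 0.18 (groups overlapping). In 5 of the 6 markers the groups did not overlap, 4 lower and 1 higher in DJB, beside 21.1% of all genes tested. Beside Slc10a2 and Fabp6, 3 markers of the distal ileum and colon were measured, Car1, Slc26a3 and Pyy, with a mean level of 7.25 to 7.94 in sham and 8.17 to 8.85 in DJB. The chloride exchanger gene Slc26a3 changed by 0.35 and the peptide hormone gene Pyy by -0.06, neither past the test, and most of the shift was that of the carbonic anhydrase gene Car1, at 4.40, 4.97 and 4.99 in sham and 6.04, 7.50 and 8.56 in DJB (limma adjusted p = 0.0658). The part of these regional markers in the changes of Slc10a2, Abcc3 and Abcc2 was not tested.

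The remaining genes of bile acid handling were taken from 8 lists of carriers, families, enzymes and regulators, also chosen with earlier results known. Of 82 such genes 73 were measured, and their median change was 0.01. Of these 1 rose and 2 fell, which is 4.11% beside 0.772% of all genes tested. At an unadjusted limma p under 0.05 there were 16 of the 73, beside 14.3% of all genes tested. In 21 of the 73 the groups did not overlap, 11 higher and 10 lower in DJB, beside 21.1% of all genes tested. The rise and 1 of the falls were among 15 measured receptors and regulators, and the other fall was among 16 genes of bile acid synthesis and conjugation. Nr1h4, which encodes FXR, was at 8.50, 8.48 and 8.56 in sham and 9.35, 9.87 and 9.25 in DJB and rose by 0.98 (SE 0.15, limma adjusted p = 0.0275), a call that ended without any 1 sham rat (up to 0.113) and with all rows tested (0.0630). Nr1i3, which encodes the xenobiotic receptor CAR, was at 7.76, 7.87 and 8.25 in sham and 7.35, 6.80 and 6.80 in DJB and fell by 0.98 (SE 0.18, limma adjusted p = 0.0497). That call was kept only without DJB 1 among the removals of 1 rat and ended with all rows tested (0.0977). Amacr, a racemase that acts on the side chain of bile acid precursors in peroxisomes, was at 8.13, 8.23 and 8.40 in sham and 7.57, 7.56 and 7.38 in DJB and fell by 0.75 (SE 0.11, limma adjusted p = 0.0211). Its call was kept only without sham 1 and without DJB 1 among the removals of 1 rat, and elsewhere the adjusted p reached 0.0923. Hsd17b4, the peroxisomal enzyme that acts after it, differed by -0.79 and did not pass (limma adjusted p = 0.0793), though it did without DJB 1 (0.0104), after median centring, with dim genes left out and with an intensity trend.

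Fgf19 and Nr0b2, which FXR is known to induce, spread widely among the DJB rats (SD 1.27 and 1.31, n = 3). Fgf19, the hormone gene, was at 5.03, 5.32 and 6.35 in sham and 6.59, 8.28 and 5.79 in DJB, with DJB 3 inside the sham range. Its interval ran from 0.05 to 2.59 (limma adjusted p = 0.335). Nr0b2, which encodes the repressor SHP, was at 6.48, 7.33 and 7.88 in sham and 8.55, 8.50 and 6.26 in DJB, with DJB 3 the lowest of all 6 rats (interval -0.76 to 1.84, limma adjusted p = 0.726). In DJB 3 the uptake gene Slc10a2 was at 12.02 and Fabp6 at 13.97, both above every sham rat. The membrane bile acid receptor gene Gpbar1 changed by 0.31 (limma adjusted p = 0.245).

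Close relatives of the 7 genes did not pass. Their counts at an unadjusted limma p under 0.05 stand beside the 14.3% of all genes tested that reached it. Among 9 measured carriers of bile acids outside the 7, none passed and 1 was at an unadjusted p under 0.05: the organic anion transporter gene Slco1a4 at 0.33 (limma adjusted p = 0.264), while the canalicular bile salt pump gene Abcb11 changed by 0.31 (0.508). None of the 6 other Slc10 genes passed (1 at an unadjusted p under 0.05), with Slc10a5 at 0.44 (limma adjusted p = 0.128) and Slc10a7 at -0.07 (0.749), whose sign turned in the mean of its rows. The 7 other Abcc genes ranged from -0.13 for Abcc9 to 0.34 for Abcc8 and none passed (1 at an unadjusted p under 0.05, limma). Of the 8 other fatty acid binding protein genes none passed (1 at an unadjusted p under 0.05, limma), with Fabp1, the liver-type form also made by enterocytes, at -0.24 and Fabp12 at 0.21. In the Slc27 family none of the 5 others passed (1 at an unadjusted p under 0.05), with Slc27a6 at 0.59 (limma adjusted p = 0.0750), a difference that did pass with dim genes left out or with an intensity trend. Slc27a2 was at -0.42, which rested on sham 2 and was 0.02 without it.

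Enzymes that conjugate or detoxify bile acids did not pass either. Baat, which joins bile acids to taurine or glycine, changed by 0.05 (-0.29 to 0.40, limma adjusted p = 0.904) from a dim row, and its sign turned after repeated quantile normalisation and without sham 1 or DJB 2. Of 8 measured genes of bile acid detoxification none passed and 1 was at an unadjusted limma p under 0.05, beside 14.3% of all genes tested. It was the cytochrome gene Cyp3a18 at -0.71 (limma adjusted p = 0.191), and Cyp3a62 was at -0.37 (limma adjusted p = 0.484).

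**Figure D4:**
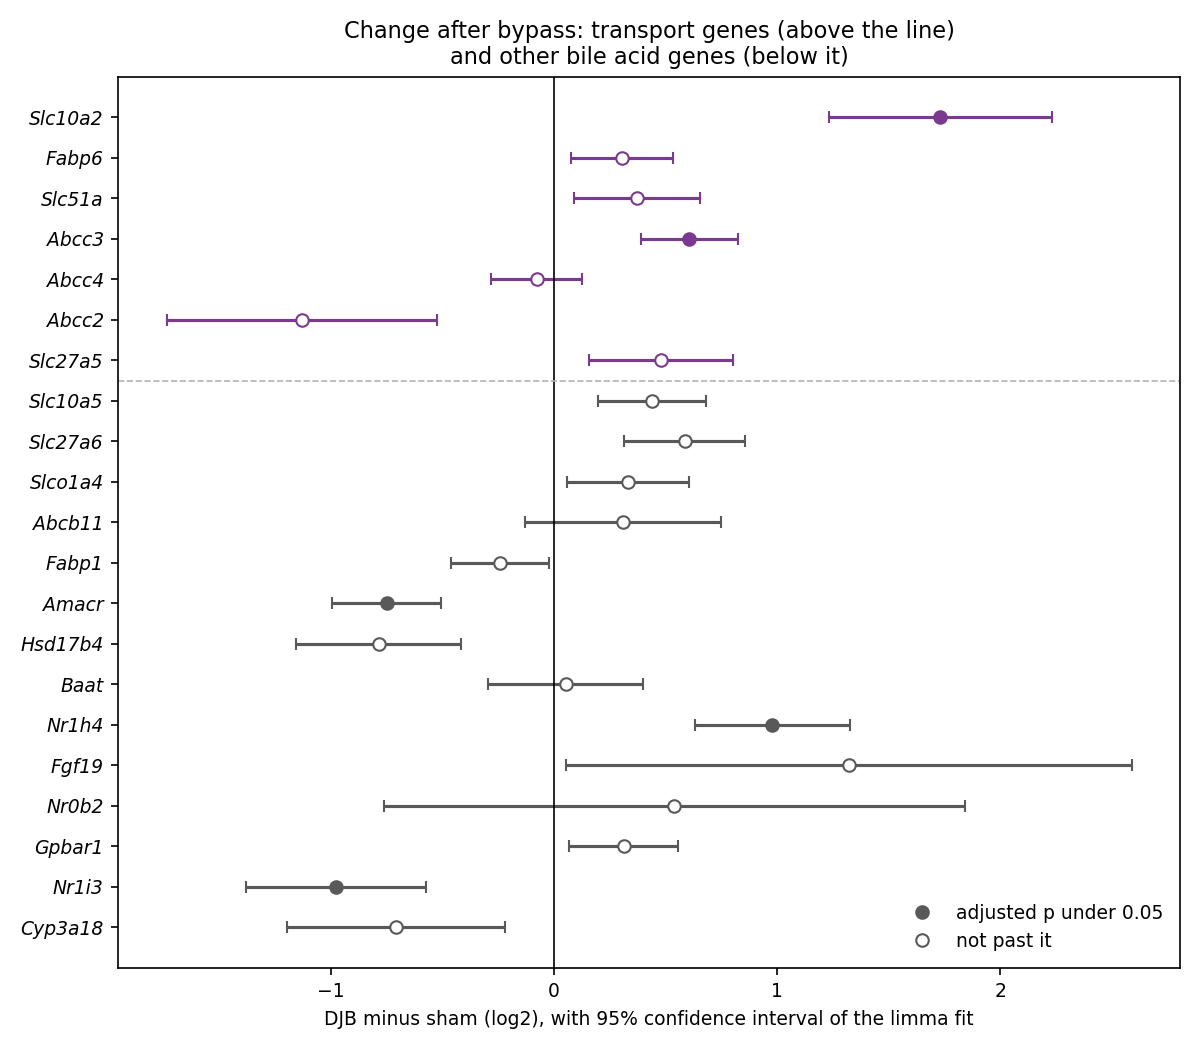
Change (DJB minus sham, log2) with the 95% confidence interval of the limma fit. The 7 genes are above the dashed line and 14 other bile acid genes below it, and filled points have an adjusted p under 0.05. Slc10a2 at 1.73 and Abcc3 at 0.61 are filled above the line, and Nr1h4 at 0.98, Amacr at -0.75 and Nr1i3 at -0.98 are filled below it.

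Genes with the most similar values over the 6 arrays were sought for Slc10a2, Abcc2 and Abcc3, by the root mean square difference of mean-centred log2 values, over 8837 genes whose mean lay above the median of all rows. Nearest to Slc10a2 were Suox, the sulfite oxidase gene (0.19), the antimicrobial lectin gene Reg3g (0.22), Ly6al (0.28), the EGF receptor ligand gene Ereg (0.29) and the cholesterol synthesis gene Sqle (0.31). All 5 rose, by 1.26 for Ly6al to 1.74 for Sqle and Suox. Nearest to Abcc2 were Slc2a2, a glucose transporter gene (0.17), Cgref1 (0.21), the apolipoprotein gene Apoc3 (0.22), Appl2 (0.23) and Cyp3a18 (0.24). Of these Cgref1, Apoc3 and Appl2 fell, by 1.10, 1.49 and 1.01, and Slc2a2 at -1.02 (limma adjusted p = 0.0881) and Cyp3a18 did not pass. Nearest to Abcc3 were Tspan1 (0.06), Apaf1, which builds the apoptosome (0.07), the taurine transporter gene Slc6a6 (0.07), the acyltransferase gene Mboat1 (0.07) and Ufc1 (0.07). Slc6a6 changed by 0.54 (limma adjusted p = 0.0750), and the other 4 rose, by 0.51 to 0.63. These genes were picked for likeness across both groups, so their changes are a description.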

How the data were processed

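Ileum RNA of 3 sham and 3 DJB rats was hybridised to 1 array per rat. The deposited values are on the log2 scale and were made with RMA by the authors, per the submitters' processing notes, which give no version. RMA corrects background, quantile normalises and summarises probes, which hides a shift common to most genes. They were used as deposited, with each column matched to its sample by name. Rows were named from the platform annotation. Of 29214 rows, 15310 carried 1 symbol, 323 several and 13581 none. Only rows with 1 symbol were used, and per gene the row of highest mean over all arrays, which left 14506 genes. DJB was compared with sham by limma 3.58.1 in R 4.3.3 (lmFit and eBayes, two-sided, no covariate, no filter), with Benjamini-Hochberg adjustment over all genes and a threshold of 0.05; the code was tested on simulated data. Figures used matplotlib 3.10.9 in Python 3.11.15. The members, lists and tests were chosen with earlier results of these data known. The genes named were the 7 members; Nr1h4, Nr0b2, Fgf19, Gpbar1, Abcb11 and Baat; from each bile acid or family list those called and the 2 of lowest p; the called cell markers; and the 5 nearest genes to each of Slc10a2, Abcc2 and Abcc3. Car1, Slc26a3, Pyy, Gata4, Gip, Slc40a1, Cybrd1, Col1a1, Col1a2, Col3a1 and Lum were named after their values were seen. So were Dcn, Pdgfra, Csf1r, Cd68, Acta2 and Smtn, and the change of Epcam was given then too. Alternatives were a replicate block, another quantile normalisation, median centring, dim genes left out, an intensity trend, robust eBayes, the mean of a gene's rows, all rows, and leaving out each rat; for levels relative to epithelium also a shorter list of epithelial markers. The labels do not say whether rats with the same replicate number were paired, and the main fit treated them as unpaired. The labels give no batch, and scan dates were not analysed here.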

Additional observations from a re-analysis of the deposited data

How the results depend on the processing

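The change of Slc10a2 passed under all 14 alternatives (1.48 to 1.91), and no gene of the 7 changed direction in any that gave a value (Slc27a5 is dim and has none with dim genes left out). The number of the 7 genes called was 1 with all rows tested or with a replicate block, in both cases Slc10a2, and 1 to 2 when 1 rat was left out (Slc10a2 with Abcc2 without sham 1). Over all genes, 112 were called, 225 with dim genes left out, 295 with an intensity trend, 50 with the replicate block and 33 to 108 when 1 rat was left out. The replicate numbers of the labels gave no sign of pairing (correlations of same-numbered rats' deviations 0.01, -0.12 and -0.15), and the block gave adjusted p = 0.0159 for Slc10a2 and 0.107 for Abcc3. Of the other bile acid genes 3 were called, 5 after median centring (Hsd17b4 and Gata4 added), 6 with dim genes left out or with an intensity trend, 1 with all rows, 0 with the replicate block by limma (15 at an unadjusted p under 0.05) and 0 to 5 when 1 rat was left out. The change of Baat reversed to -0.014 after repeated quantile normalisation and ranged from -0.10 to 0.14 when 1 rat was left out (-0.06 without DJB 2), that of Slc10a7 reversed to 0.068 in the mean of its rows, and that of Slc27a2 ranged from -0.66 to 0.016 when 1 rat was left out, reversing without sham 2. The cause of these shifts was not tested. Differences between genes and levels relative to epithelium cannot pass in 3 against 3 rats, so their directions alone were compared, and none reversed. Whether groups overlapped did change for some, as given for Fabp6 and Slc27a5, and those of Slc27a5 relative to epithelium also parted without sham 2 or DJB 3. The groups of Abcc4 minus Abcc2 no longer overlapped in the mean of a gene's rows and without sham 1 or DJB 1. For Abcc4 relative to epithelium they no longer overlapped without sham 3 and with the shorter list of epithelial markers (-0.17).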
